A study of Homo sapiens with 18 samples.

Results

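The mitosis and spindle genes described here are 56 genes whose products drive entry into mitosis, build the spindle, hold and separate the chromosomes and divide the cell. They were taken from a list of gene symbols, and each was read from the probe set that carried its symbol alone and had the highest mean over all arrays. All 56 were above the filter on low signal, among 12319 genes tested of 19775 with at least 1 such probe set. The RNA came from Caco-2, an established line from a human carcinoma of the colon that serves as a model of the gut epithelium, and was hybridised to 18 Affymetrix arrays. Control cells were cultured in DMEM and depleted cells in the same medium lacking riboflavin (vitamin B2, from which cells make the cofactors FMN and FAD). Both were collected at 24, 48 and 72 h, with 3 arrays in each of the 6 groups. Both media held foetal calf serum, penicillin and streptomycin. The labels mention dialysed serum for some experiments and do not say for which arrays. The title of the series names impaired proliferation under riboflavin depletion, and the comparison asks what happened to the genes of cell division over these 3 times.

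Most of these genes are silent or low in resting cells, are transcribed late in S phase and in G2, and reach their highest level as the cell enters mitosis. Their promoters often hold a cell cycle homology region (CHR), which the LIN54 subunit of the MuvB complex binds, and CCAAT boxes bound by NF-Y. In resting and G1 cells MuvB works with RB family proteins and E2F4 as a repressor. In G2 it works with B-MYB and FOXM1 as an activator. In the intestine they are known as genes of the dividing cells of the crypt, and in a culture of Caco-2 cells they mark dividing cells.

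The shared promoter letters were found in the RefSeq promoters of the members (GRCh38.p14, 250 bases before to 50 bases after each start). Of the 56 genes 48 matched an entry, and the first entry was used for the 10 genes that had several. TTTGAA or TTTAAA, the letters of the CHR, stood on either strand in 41 of the 48 (85.4%) against 24.3% of 27305 promoters of the same length. CCAAT on either strand was in 35 of the 48 (72.9%) against 35.7%, and both motifs were in 30 (62.5%) against 9.49%. The E2F letters TTTGGCGC or TTTCGCGC were in 3 (6.25%) against 1.18%, and 1 pair of different motifs overlapped. A match describes letters in this window and is not a binding site. The windows printed here run from 120 bases before to 30 bases after the start of 4 genes that were lower in depleted cells and of both genes that were higher, so that the 2 directions can be set side by side. They are printed in the direction of the gene, and capitals mark the CHR letters on either strand, where TTTGAA of the other strand reads as TTCAAA, and likewise the CCAAT letters, which there read as ATTGG. They are CCNB1 at chr5:69167030-69167179 on the plus strand and SPC25 at chr2:168890401-168890550 on the minus strand. Next are ASPM at chr1:197146640-197146789 on the minus strand and KIF14 at chr1:200620722-200620871 on the minus strand. Last are ECT2 at chr3:172750606-172750755 on the plus strand and KIF23 at chr15:69414229-69414378 on the plus strand.
CCNB1: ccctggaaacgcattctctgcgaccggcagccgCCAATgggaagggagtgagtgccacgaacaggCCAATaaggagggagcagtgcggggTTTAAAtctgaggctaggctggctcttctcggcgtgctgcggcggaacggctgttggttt
SPC25: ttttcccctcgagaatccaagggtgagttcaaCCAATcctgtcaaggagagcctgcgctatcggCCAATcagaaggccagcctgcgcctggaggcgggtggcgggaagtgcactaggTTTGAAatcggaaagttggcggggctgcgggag
ASPM: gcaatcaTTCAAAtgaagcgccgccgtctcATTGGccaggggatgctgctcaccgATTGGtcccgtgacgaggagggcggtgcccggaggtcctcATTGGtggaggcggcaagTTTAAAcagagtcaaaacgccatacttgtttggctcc
KIF14: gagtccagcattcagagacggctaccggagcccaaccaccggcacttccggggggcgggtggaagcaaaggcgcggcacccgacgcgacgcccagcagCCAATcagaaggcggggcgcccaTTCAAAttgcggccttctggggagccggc
ECT2: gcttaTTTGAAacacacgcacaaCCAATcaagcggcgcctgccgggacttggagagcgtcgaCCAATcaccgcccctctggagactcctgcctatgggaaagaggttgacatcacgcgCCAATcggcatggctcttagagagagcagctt
KIF23: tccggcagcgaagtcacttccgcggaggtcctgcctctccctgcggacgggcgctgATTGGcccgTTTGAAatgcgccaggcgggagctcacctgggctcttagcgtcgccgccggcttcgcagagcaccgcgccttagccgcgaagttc
All 6 windows held letters of both kinds, which was not so for every gene called lower at 72 h. In the searched promoters CDC25C had neither kind, CCNA2 had no CHR letters and NDC80 had no CCAAT letters. The CHR letters began 30 bases before the start in CCNB1, 3 before it in SPC25, 7 and 113 before it in ASPM and 1 after it in KIF14. In ECT2 and KIF23, the genes that went the other way at 72 h, they began 115 and 55 bases before the start. Outside the printed windows the searched promoters held a further match 247 bases before the start in SPC25, 198 before it in KIF14, 211 before it in KIF23 and 34 after it in ECT2. The median depletion effect of the 41 members with CHR letters was -0.14 at 24 h, -0.34 at 48 h and -0.28 at 72 h on the log2 scale, against -0.09, -0.36 and -0.38 in the 7 members without them.

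The arrays were numbered so that each replicate number ran once through the 6 groups, which gives 3 sets of 6 arrays. Depleted and control arrays of a time were compared within the set. Values are the deposited MAS5 signals, each array scaled by the authors to 1 trimmed mean. All differences and SE are on the scale log2(signal + 16), which understates the change of low genes. Set 2 stood apart from the others. Its median signal was 25.7 to 31.3 against 18.4 to 23.3 and its highest signal 27380.2 to 31409.8 against 6904.8 to 8574.5. Its ratio of 3' to 5' signal for ACTB was 1.91 to 4.62 against 1.13 to 2.07. Of 14 markers of the intestinal epithelium 13 passed the filter, LGALS4 did not, and KRT20 was low with a median signal of 19.4. Of 8 fibroblast markers 5 passed, with summed signals at 72 h of 509.6 to 638 in control and 406.1 to 515.3 in depleted arrays. Of 7 leukocyte markers 5 were measured and 4 passed, with sums at 72 h of 209.7 to 279 in control and 317.4 to 386.3 in depleted arrays. The defining marker PTPRC did not pass and had a median signal of 5.45. The labels of the 24 h arrays and the 48 h control array of set 2 carry a suffix that is not explained, and these 3 arrays had the highest ACTB ratios, 3.03 to 4.62. At 48 h the ratio in set 2 was 3.03 in the control and 2.01 in the depleted array, and over all sets it ran from 1.13 to 3.03 and from 1.21 to 2.01. At 72 h the ACTB ratio ran from 1.21 to 2.08 in control arrays and from 1.18 to 1.91 in depleted ones, and the part of these values in the results was not tested. The labels do not say that replicates came from separate cultures. A p-value here measures the spread between these samples, which may be technical, and precision is limited by the number of arrays.

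As a group the mitosis genes were lower in depleted cells, a little at 24 h and more at 48 and 72 h. The median of the 56 depletion effects was -0.15 at 24 h, -0.34 at 48 h and -0.31 at 72 h, where the median of all genes tested was 0.01, 0.03 and -0.04. At 48 h, 52 of the 56 members were below 0, against 5745 of 12319 genes. In single sets the median ran from -0.26 to -0.08 at 24 h, from -0.52 (set 2) to -0.28 at 48 h and from -0.34 to -0.26 at 72 h. Fewer dividing cells and less of these RNAs in each cell cannot be told apart in such bulk samples. When every array was centred on its 75th percentile, the median of all genes at 48 h moved from 0.03 to -0.098 and that of the members to -0.467, so the members lay about as far below all genes as before.

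**Figure D1:**
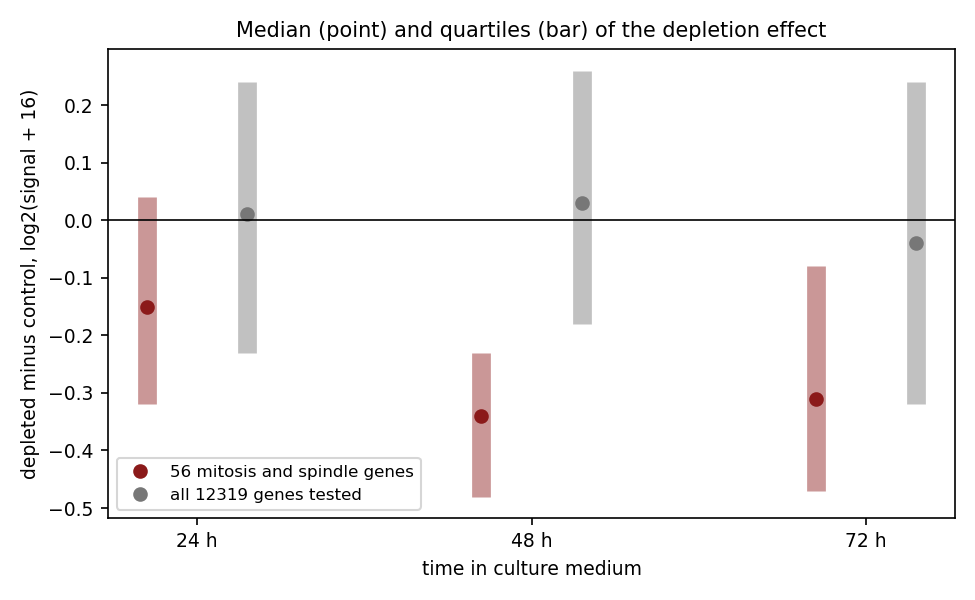
The plot shows the depletion effect (depleted minus control, log2(signal + 16)) at 24, 48 and 72 h for the 56 mitosis and spindle genes in red and all 12319 genes tested in grey, with points for medians and bars from the lower to the upper quartile. At 48 h the quartiles of the members were -0.48 and -0.23 and did not reach 0.

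Counts over the sets showed the same order of times. At 24 h, 22 members were lower in all 3 sets and 3 were higher in all 3, where 22.4% and 25.1% of all genes were. At 48 h these counts were 43 and 1, against 18.4% and 19.4% of all genes. At 72 h they were 35 and 4, against 30.6% and 24.6%. A set of 11 members was lower in all 9 pairs of depleted and control arrays, which was so for 4.98% of all genes: BIRC5, BUB1, CCNA2, CCNB1, CDC20, CKS2, KIF14, NCAPH, PTTG1, SPC25 and UBE2C. The lowest of the 3 effects was at 24 h in 9 members, at 48 h in 24 and at 72 h in 23, and 32 members were below 0 at all 3 times. These counts were not made over all genes, of which 0.244% were called lower at 48 h and 8.65% at 72 h. They are description only and do not set the timing of the members apart.

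**Figure D2:**
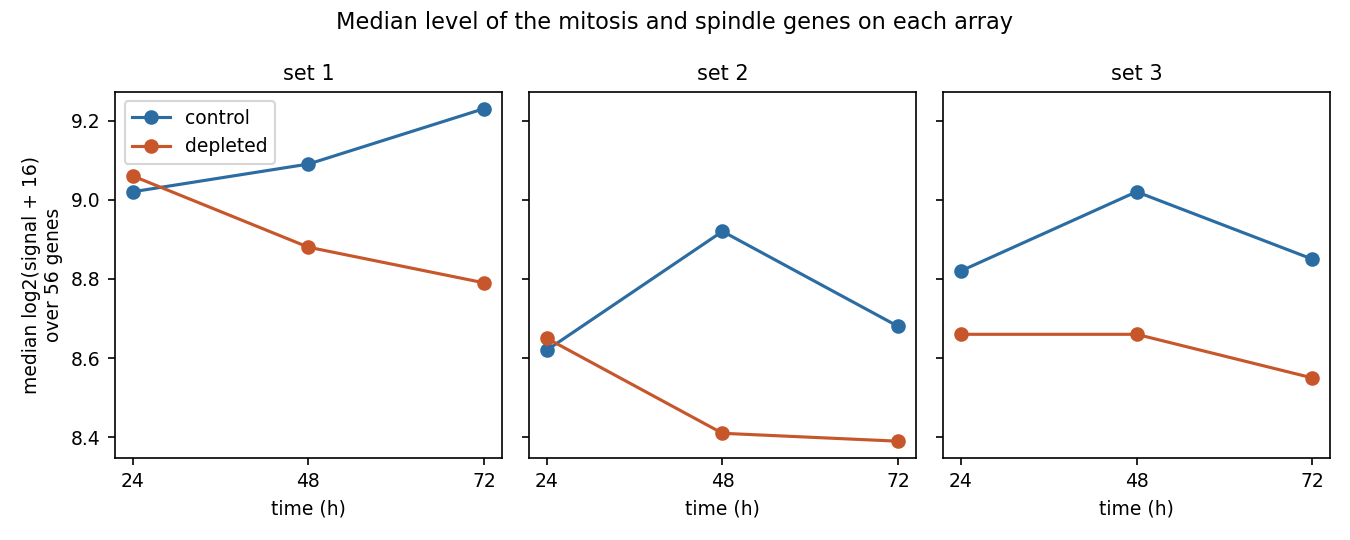
Each panel is 1 set of 6 arrays and plots, against time in hours, the median log2(signal + 16) of the 56 genes on the control array (blue) and the depleted array (orange). At 48 and 72 h the depleted array was below the control array in every set, while at 24 h it was 9.06 against 9.02 in set 1 and 8.65 against 8.62 in set 2.

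Few members passed the test at the early times. At 24 h limma with the set as block called 2 members lower, NCAPH and SPC25, and 0 higher, with 10 lower and 0 higher past an unadjusted p of 0.05 (9.16% and 11% of all genes). In that comparison 0.982% of all genes were called lower and 1.98% higher. At 48 h it called 2 lower, NCAPH and BUB1, and 0 higher, with 27 lower and 0 higher past an unadjusted p of 0.05 (7.55% and 8.85% of all genes). Here 0.244% of all genes were called lower and 0.568% higher (0.422% and 0.349% with arrays centred on the 75th percentile). Without the block both times gave 0 members in either direction, where 0.0649% of all genes were called lower and 0.235% higher at 24 h and 0.0244% and 0.0812% at 48 h. The 24 h count fell to 1 when the control array of set 1 or 3 or the depleted array of set 1, 2 or 3 of that time was left out. At 48 h it was 0 without the control array of set 2 or 3 or any of the depleted arrays of that time. It was 1 without the 48 h control array of set 1, the 24 h control array of set 3, the 24 h depleted array of set 1, the 72 h control array of set 1 or 3 or the 72 h depleted array of set 3. Other counts at these times lay between 0 and 9 as the filter, pseudocount and variance model changed. The shares of all genes called under those settings are not given here.

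At 72 h, 11 members fell and 2 rose. Except where a time course within 1 medium is described, fell and rose mean lower and higher in depleted than in control arrays. Those that fell were ASPM, SGO2, KIF14, SPC25, NDC80, CCNF, KIF20A, CCNA2, CDC25C, BIRC5 and CCNB1, and those that rose were ECT2 and KIF23. Of all genes 8.65% were called lower and 6.21% higher at this time, so the 11 lower calls among 56 members stand beside a background of some size. Without the block the call remained for ASPM and KIF14 only, and the count of lower members was 2, with 0 higher, where 2.47% and 1.92% of all genes were called. The lower count was 5 without the 72 h control array of set 1, and 6 without the depleted array of set 1. It was 7 without the control array of set 2, the depleted array of set 2 or the control array of set 3. It was 20 with a stricter filter on low signal and 6 with none. The shares of all genes called with these filters are not given here, so these counts do not set the members apart. The count of higher members was 1 without the 72 h control array of set 1 or 2 or the depleted array of set 2 or 3. The calls lost were those of CCNA2, CCNF, CDC25C, KIF20A, BIRC5, CCNB1 and KIF23, with adjusted p from 0.0523 to 0.123. Each was lost in 3 to 5 of the 18 fits, always for arrays of 72 h. In every fit that left out 1 of the 18 arrays ASPM, KIF14, NDC80, SPC25, SGO2 and ECT2 passed the test. Leaving out a whole set, which leaves 2 arrays a group, ended more calls. Without set 1 there were 0 lower and 0 higher, without set 2 there were 8 lower and 1 higher, and without set 3 there was 1 lower, ASPM, and 0 higher.

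**Figure D3:**
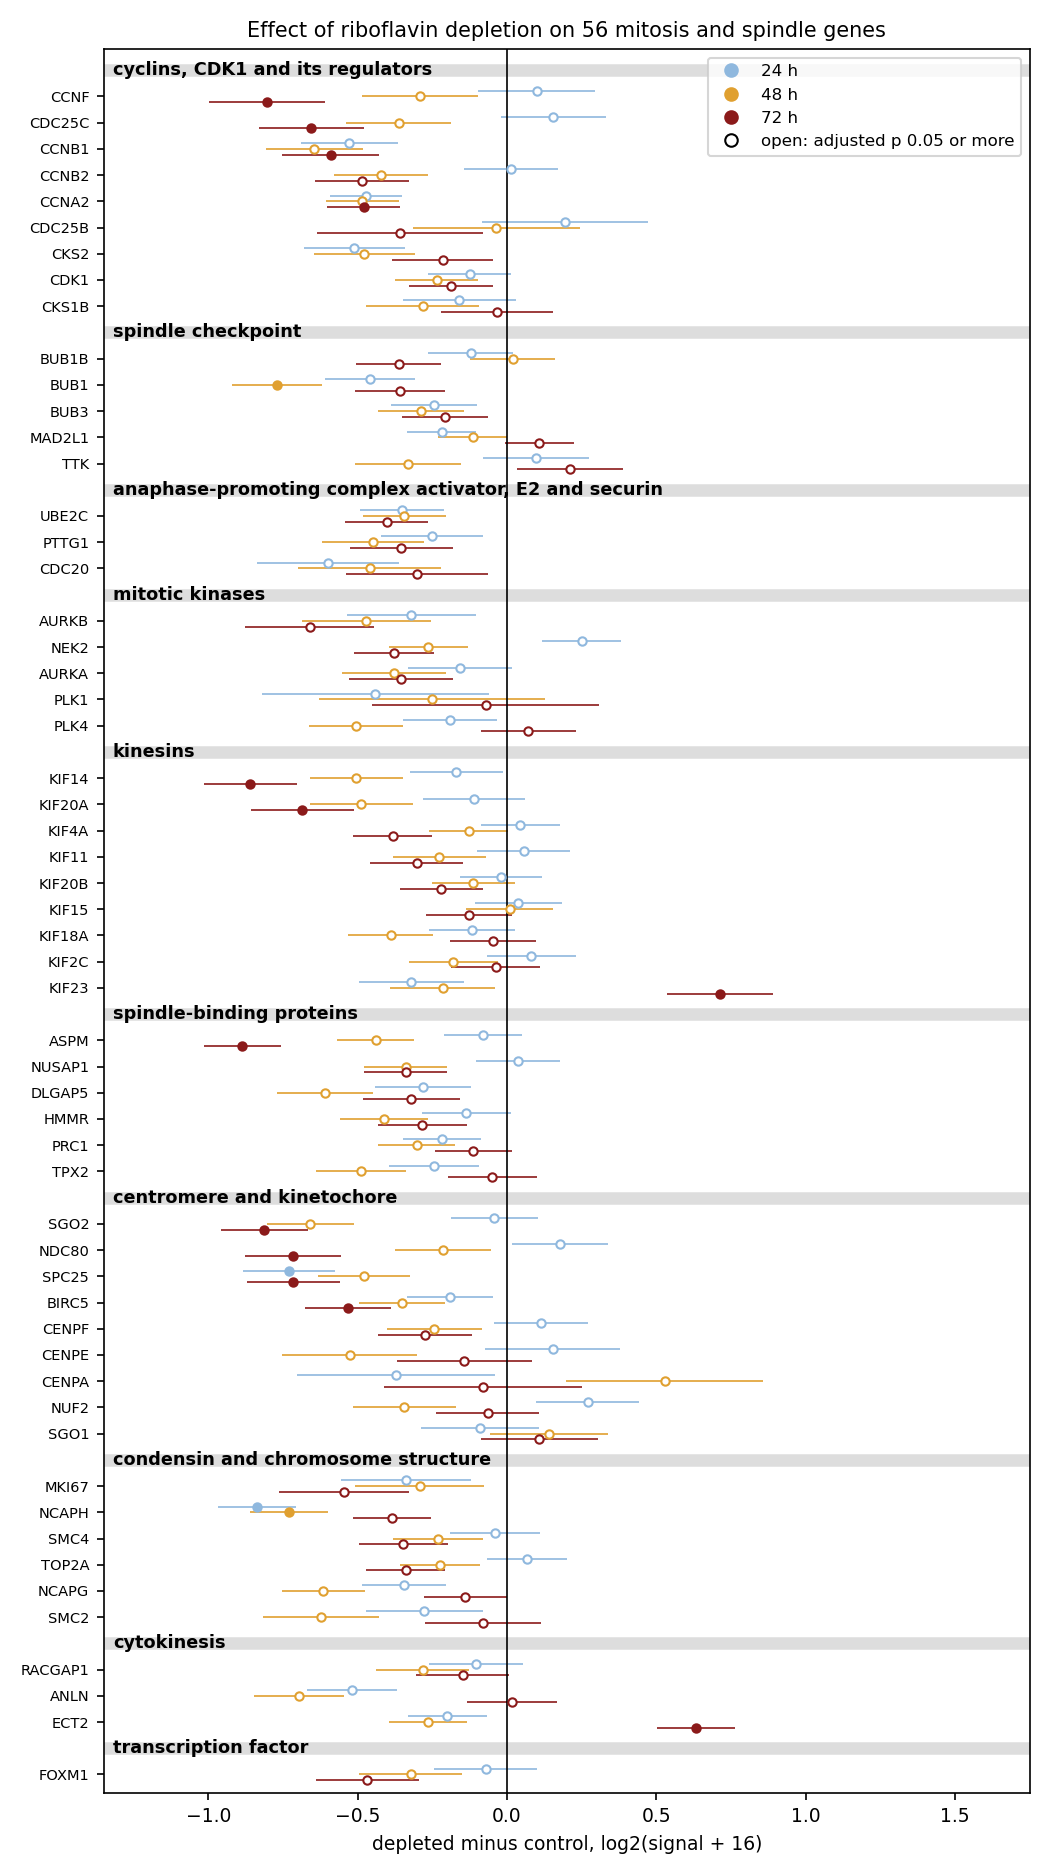
The plot gives, for each of the 56 genes grouped by role, the depletion effect (depleted minus control, log2(signal + 16), horizontal axis) at 24 h (blue), 48 h (orange) and 72 h (dark red), with bars of 1 SE; filled points passed the test at an adjusted p of 0.05. At 72 h ECT2 and KIF23 lie to the right of 0 at 0.63 and 0.71, and ASPM, KIF14, SGO2 and CCNF lie furthest to the left, at -0.89, -0.86, -0.81 and -0.80.

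The cyclins and regulators of CDK1, the kinase whose activity starts mitosis, gave 0 calls at 24 and 48 h and 4 lower calls at 72 h. Of all genes 0.982%, 0.244% and 8.65% were called lower at 24, 48 and 72 h. The calls at 72 h alone therefore do not show a late timing of this group. All 9 cyclins and regulators were below 0 at 48 and 72 h, from -0.65 to -0.04 and from -0.80 to -0.03. Their median was -0.12 at 24 h, -0.36 at 48 h and -0.48 at 72 h. CCNB1, the B-type cyclin that activates CDK1 at mitotic entry, had signals at 72 h of 1963.0, 1427.2 and 1481.5 in the control arrays of sets 1, 2 and 3 and 1198.2, 865.8 and 1156.1 in the depleted arrays. At 24 h its signals were 2185.3, 1823.4 and 1902.3 in control and 1800.5, 1252.9 and 1107.0 in depleted arrays. At 48 h they were 2448.8, 2366.7 and 2034.1 against 1807.1, 1091.6 and 1542.6. At each time every depleted array was below every control array. The difference was -0.53 (SE 0.16, adjusted p = 0.105) at 24 h, -0.65 (SE 0.16, adjusted p = 0.0898) at 48 h and -0.59 (SE 0.16, adjusted p = 0.0285; 0.211 without the block) at 72 h. The 72 h call was lost without the control array of set 1, 2 or 3 or the depleted array of set 1 or 2 of that time, with adjusted p up to 0.108.

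CCNA2, the A-type cyclin of S phase and G2, moved by almost the same amount at every time: -0.47 at 24 h, -0.48 at 48 h and -0.48 at 72 h, each with an SE of 0.12. It passed at 72 h (adjusted p = 0.0194; 0.424 without the block). CCNF, the F-box cyclin that targets proteins for degradation in G2, had signals at 72 h of 127.9, 178.4 and 122.7 in control and 57.5, 94.1 and 74.1 in depleted arrays. The 2 groups did not overlap at that time. Its difference was 0.10 (SE 0.19) at 24 h and -0.29 at 48 h. At 72 h it was -0.80 (SE 0.19, adjusted p = 0.0149, and 0.0619 without the block). The change of this effect from 24 to 72 h was -0.90 (SE 0.28, adjusted p = 0.0815), not past the test. CDC25C, a phosphatase that removes the inhibitory phosphates of CDK1, was lower than in control cells at 72 h, at -0.66 (SE 0.18, adjusted p = 0.0246, and 0.392 without the block). From 48 to 72 h it changed by 0.41 in control and 0.12 in depleted cells, neither past the test. CDK1 itself had differences of -0.12, -0.24 and -0.19 (SE 0.14), none past the test. Its signals at 72 h were 2624.2, 2210.3 and 1896.3 in control and 2222.5, 1885.3 and 1771.4 in depleted arrays, which overlapped. The other 4, the cyclin CCNB2, the phosphatase CDC25B and the CDK-binding subunits CKS1B and CKS2, lay between -0.49 and -0.03 at 72 h and did not pass.

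The spindle checkpoint, which holds anaphase back until every kinetochore is attached, gave 1 call, at 48 h. At that time 0.244% of all genes were called lower. BUB1, a kinase of the checkpoint at the kinetochore, had signals at 48 h of 541.7, 604.1 and 482.0 in control and 326.0, 270.8 and 337.9 in depleted arrays. No depleted array reached the lowest control array at this time, which was so at 24 and 72 h too. The difference was -0.46 (SE 0.15, adjusted p = 0.126) at 24 h, -0.77 (SE 0.15, adjusted p = 0.0339; 0.225 without the block) at 48 h and -0.36 (SE 0.15, adjusted p = 0.137) at 72 h. The call at 48 h was lost in 11 of the 18 fits without 1 array, those of the arrays named with the count at 48 h, with adjusted p from 0.0501 to 0.134. Of the other checkpoint genes at 72 h the kinase BUB1B was at -0.36 and BUB3, which recruits both BUB proteins, at -0.21. MAD2L1, the protein that inhibits CDC20, was at 0.11 and the kinase TTK at 0.21, and none of the 4 passed. Genes of the step into anaphase that the checkpoint holds back are the activator CDC20, the ubiquitin-conjugating enzyme UBE2C and the securin PTTG1. Each was below 0 in all 9 pairs but passed at none of the 3 times. Their effects were -0.60 to -0.25 at 24 h, -0.46 to -0.34 at 48 h and -0.40 to -0.30 at 72 h.

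None of the 5 mitotic kinases passed at any of the 3 times. AURKB, the kinase of the chromosomal passenger complex, was at -0.32, -0.47 and -0.66 (SE 0.22, adjusted p = 0.0608 at 72 h). Its 72 h signals were 110.4, 106.2 and 212.3 in control and 68.1, 45.3 and 157.1 in depleted arrays. Set 3 was high in both media, so the groups overlapped although each pair was lower. PLK1, the polo-like kinase of mitotic entry and the spindle, varied most, with an SE of 0.38. Its 72 h signals were 129.3, 265.9 and 337.8 in control and 131.5, 265.1 and 285.0 in depleted arrays. Depleted and control arrays differed little within sets 1 and 2, and the 72 h difference was -0.07. NEK2, a kinase that helps to separate the centrosomes, was at 0.25 at 24 h, -0.26 at 48 h and -0.38 at 72 h (SE 0.13, adjusted p = 0.0775). Its 72 h signals were 656.4, 462.2 and 519.1 in control and 480.8, 382.9 and 378.8 in depleted arrays. All 3 pairs were lower at 72 h and all 3 were higher at 24 h. AURKA, the kinase of the spindle poles, was at -0.36 at 72 h, and PLK4, which starts centriole duplication, was at -0.51 at 48 h and 0.07 at 72 h.

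Among the 9 kinesins, the motors that move chromosomes and microtubules, 2 fell and 1 rose at 72 h, beside 8.65% and 6.21% of all genes. KIF14, a kinesin of the midzone and midbody, had 72 h signals of 217.6, 242.6 and 214.2 in control and 128.5, 116.2 and 105.9 in depleted arrays. Depleted and control arrays did not overlap at 72 h. At 48 h the signals were 297.0, 341.8 and 251.6 against 208.2, 233.2 and 171.6, again apart, while those of 24 h overlapped. The difference was -0.17 at 24 h, -0.51 (SE 0.16, adjusted p = 0.146) at 48 h and -0.86 (SE 0.16, adjusted p = 0.0027; 0.0228 without the block) at 72 h. KIF20A, a kinesin of the central spindle, fell at 72 h by 0.68 (SE 0.17, adjusted p = 0.0175; 0.232 without the block). Its signals were 584.5, 282.8 and 419.9 in control and 303.9, 235.6 and 217.9 in depleted arrays. Set 2 was the lowest of the control arrays, and the groups overlapped. The chromosome motor KIF4A (-0.38), KIF11, which pushes the spindle poles apart (-0.30), KIF20B (-0.22), KIF15 (-0.13), KIF18A (-0.05) and the microtubule depolymerase KIF2C (-0.04) did not pass at 72 h.

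ASPM, a protein of the spindle poles, had the smallest p of all 56 at 72 h. Its signals at 72 h were 690.4, 610.3 and 599.1 in control and 338.1, 332.3 and 333.0 in depleted arrays. At 24 h they were 650.2, 566.4 and 555.9 in control and 644.4, 594.1 and 449.8 in depleted arrays. At 48 h they were 659.2, 637.0 and 592.8 against 506.8, 412.4 and 464.0. The control arrays kept nearly 1 level over the 3 times. The depleted arrays overlapped with them at 24 h and did not at 48 and 72 h. The difference was -0.08 (SE 0.13, adjusted p = 0.803), then -0.44 (SE 0.13, adjusted p = 0.134), then -0.89 (SE 0.13, adjusted p = 0.000695; 0.00945 without the block), which is 1.85-fold lower at 72 h. The other 5 spindle-binding genes were lowest at 48 h or near so and did not pass at any time. At 48 h DLGAP5, which stabilises spindle microtubules, was at -0.61, TPX2, the activator of AURKA, at -0.49, HMMR at -0.41, NUSAP1 at -0.34 and PRC1, which bundles the midzone microtubules, at -0.30.

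The 9 genes of the centromere and kinetochore, where microtubules hold the chromosome, held 4 of the 11 lower calls at 72 h. Of all genes 8.65% were called lower at 72 h and 0.982% at 24 h. SPC25, a subunit of the NDC80 complex that binds microtubules, had 24 h signals of 551.7, 216.9 and 424.1 in control and 273.0, 150.3 and 249.8 in depleted arrays. Its 48 h signals were 499.3, 243.8 and 432.4 against 319.0, 212.8 and 272.7. Its 72 h signals were 365.3, 257.7 and 359.1 against 227.3, 130.6 and 232.1. Set 2 was low in both media, so the groups overlapped at 24 and 48 h and separated at 72 h. The depleted array was lower in each of the 9 pairs. The difference was -0.73 (SE 0.15, adjusted p = 0.0257; 0.606 without the block) at 24 h, -0.48 (SE 0.15, adjusted p = 0.161) at 48 h and -0.72 (SE 0.15, adjusted p = 0.00801; 0.318 without the block) at 72 h. At 24 h 5 of the 18 fits without 1 array lost the call. They left out the control array of set 1 or 3 or a depleted array of that time and gave adjusted p from 0.0807 to 0.102.

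NDC80, another subunit of the same complex, did not follow SPC25 at 24 h. Its signals were 485.3, 273.4 and 310.7 in control and 552.9, 333.7 and 329.3 in depleted arrays at 24 h, where each depleted array was the higher of its pair. At 72 h they were 619.4, 375.8 and 454.8 in control and 403.0, 204.2 and 269.5 in depleted arrays, where each was the lower, with overlap between the groups. The difference was 0.18 (SE 0.16, adjusted p = 0.618) at 24 h, -0.21 at 48 h and -0.72 (SE 0.16, adjusted p = 0.00965; 0.337 without the block) at 72 h. NUF2, the partner of NDC80 within the complex, was at 0.27, -0.34 and -0.06 and did not pass.

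SGO2, a shugoshin that protects cohesin at the centromere, had 72 h signals of 439.7, 235.1 and 358.8 in control and 215.5, 150.7 and 189.2 in depleted arrays. At 24 h they were 437.2, 290.0 and 359.8 against 448.4, 293.5 and 315.9. At 48 h they were 453.1, 337.8 and 423.8 against 299.0, 168.4 and 303.8. The arrays overlapped at 24 h and were apart at 48 and 72 h. The difference was -0.04 at 24 h, -0.66 (SE 0.14, adjusted p = 0.0576) at 48 h and -0.81 (SE 0.14, adjusted p = 0.00247; 0.122 without the block) at 72 h. BIRC5, the survivin of the chromosomal passenger complex, fell at 72 h by 0.53 (SE 0.14, adjusted p = 0.0256; 0.193 without the block). SGO1, the other shugoshin, was at -0.09, 0.14 and 0.11. Its level was low, with a mean of 5.73 where the filter stood at 5.1546, so a change would be understated. Its second probe set was at -0.40, -0.27 and -0.20, and no value of either passed the test. The kinetochore motor CENPE, the kinetochore protein CENPF and the centromeric histone CENPA were at -0.14, -0.27 and -0.08 at 72 h, none past the test.

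The condensin subunit NCAPH fell at 24 and 48 h. Condensin is the ring complex that compacts mitotic chromosomes, and NCAPH closes the ring of condensin I. Its 24 h signals were 222.9, 220.9 and 220.1 in control and 139.6, 108.6 and 105.2 in depleted arrays. Its 48 h signals were 212.3, 228.6 and 235.8 against 129.7, 126.4 and 132.6. Its 72 h signals were 203.2, 182.9 and 199.7 against 133.7, 142.6 and 161.3. All 9 depleted arrays were below the 9 control arrays. The difference was -0.84 (SE 0.13, adjusted p = 0.00549; 0.0522 without the block) at 24 h, -0.73 (SE 0.13, adjusted p = 0.0216; 0.182 without the block) at 48 h and -0.39 (SE 0.13, adjusted p = 0.0676; 0.246 without the block) at 72 h. The 24 h call held in every fit without 1 array and was lost without any whole set, with adjusted p of 0.0793 to 0.304. The 48 h call was lost without the control array of set 2 or 3 or a depleted array of that time, with adjusted p from 0.0756 to 0.096.

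The other condensin and chromosome genes did not pass at any time. NCAPG, the partner of NCAPH in condensin I, was at -0.35, -0.61 (SE 0.14, adjusted p = 0.0637) and -0.14. The condensin ATPases SMC2 and SMC4 were at -0.62 and -0.23 at 48 h. TOP2A, the topoisomerase that untangles sister chromatids, had 72 h signals of 1255.0, 1450.7 and 1357.8 in control and 1023.7, 1213.9 and 971.6 in depleted arrays. They did not overlap, and the difference was -0.34 (SE 0.13, adjusted p = 0.114). MKI67, the Ki-67 protein that coats mitotic chromosomes and is used as a marker of proliferation, had 72 h signals of 461.3, 208.0 and 444.8 in control and 290.7, 142.7 and 309.9 in depleted arrays. Set 2 was low in both media, each depleted array was lower than its control, and the difference was -0.55 (SE 0.22, adjusted p = 0.119). FOXM1, the transcription factor of many of these promoters, had 72 h signals of 410.7, 589.2 and 507.0 against 291.6, 413.9 and 369.7. Each depleted array was lower than its control, with overlap at 413.9 and 410.7, and the difference was -0.47 (SE 0.17, adjusted p = 0.0919).

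ECT2 and KIF23, the 2 members that rose at 72 h, both act in cytokinesis. Of all genes 6.21% were called higher at this time. The 2 calls do not set cytokinesis genes apart. KIF14 of the midbody and KIF20A of the central spindle were called lower, at -0.86 and -0.68. ECT2, the exchange factor that activates RhoA at the division plane, had 72 h signals of 964.5, 869.4 and 858.6 in control and 1483.9, 1333.2 and 1380.3 in depleted arrays. Its 24 h signals were 1028.9, 883.6 and 1038.9 against 934.6, 868.3 and 763.3. Its 48 h signals were 1284.0, 1175.2 and 1017.2 against 1073.1, 807.0 and 1011.6. In each set the depleted array was below its control at 24 and 48 h and above it at 72 h, where no array of the 2 groups overlapped. The difference was -0.20 (SE 0.13, adjusted p = 0.468) at 24 h, -0.27 (SE 0.13, adjusted p = 0.345) at 48 h and 0.63 (SE 0.13, adjusted p = 0.00627; 0.0601 without the block) at 72 h, which is 1.55-fold higher.

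KIF23, the kinesin subunit of centralspindlin, the complex that recruits ECT2 to the midzone, had 72 h signals of 226.6, 114.6 and 240.2 in control and 378.4, 233.6 and 347.6 in depleted arrays. At 24 h they were 320.0, 145.4 and 306.4 against 245.8, 143.8 and 198.5. At 48 h they were 368.7, 250.1 and 236.9 against 301.5, 169.7 and 264.5. Set 2 was low in both media at 24 and 72 h, so the groups overlapped at 72 h, but each pair was higher. The difference was -0.32 at 24 h, -0.22 at 48 h and 0.71 (SE 0.18, adjusted p = 0.0166; 0.305 without the block) at 72 h. The call was lost without the 72 h control array of set 1 or 2 or the depleted array of set 2 or 3, with adjusted p from 0.0556 to 0.0794. RACGAP1, the other subunit of centralspindlin, was at -0.10, -0.28 and -0.15 (SE 0.16, adjusted p = 0.599 at 72 h). ANLN, the anillin that links RhoA to the contractile ring, was at -0.52, -0.70 (SE 0.15, adjusted p = 0.0535) and 0.02.

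**Figure D4:**
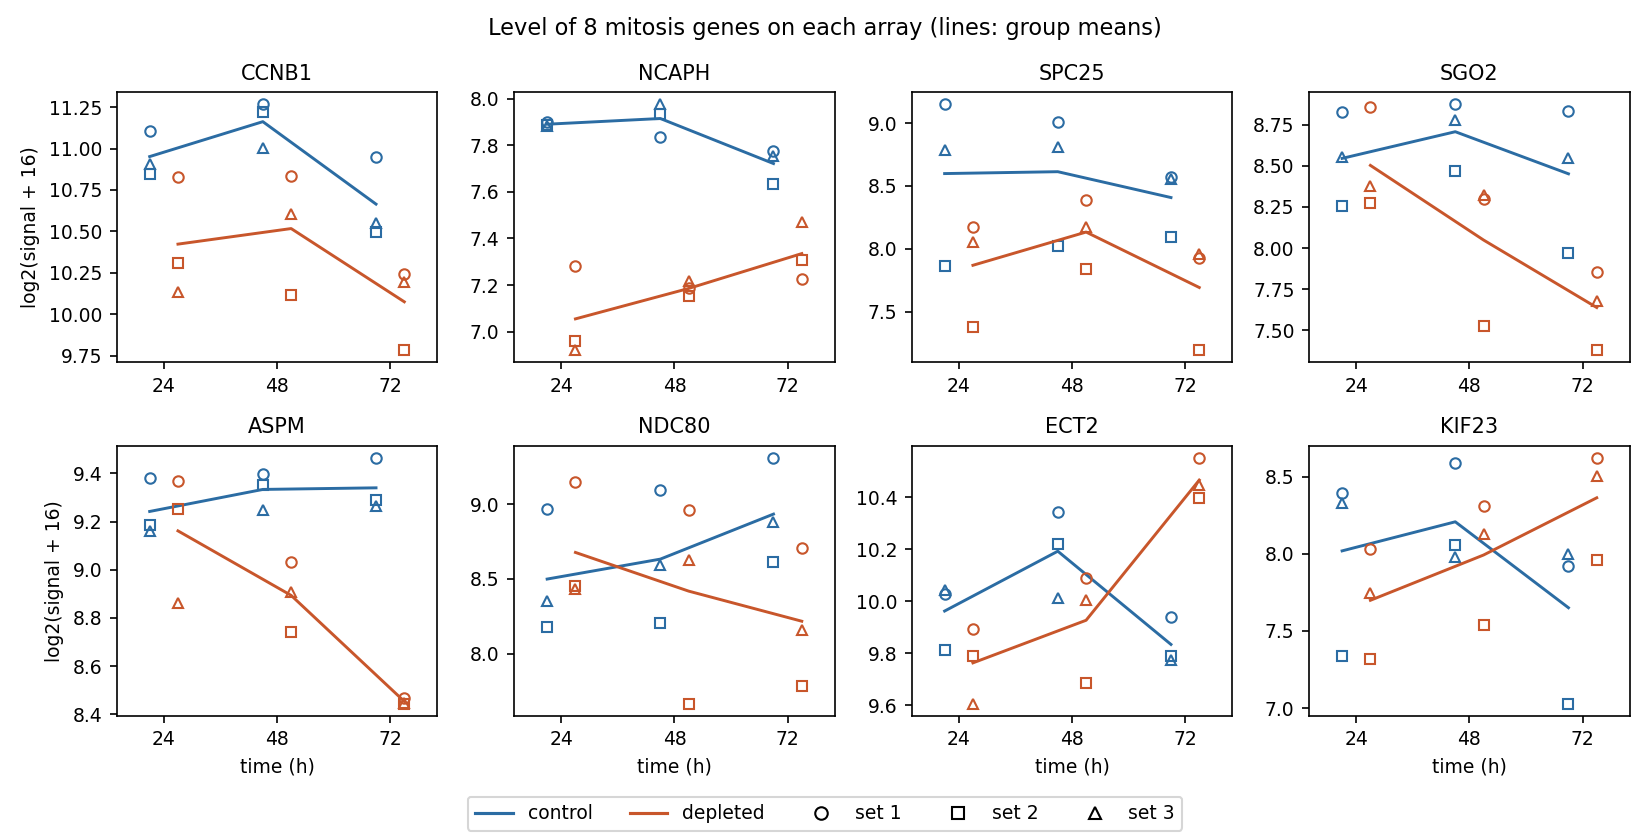
Each panel plots log2(signal + 16) of 1 gene on each of the 18 arrays against time in hours, control in blue and depleted in orange, with a symbol for each of the 3 sets and lines through the group means; the vertical axes differ between panels and do not start at 0. In the probe sets plotted, depleted and control arrays of ASPM and SGO2 begin together at 24 h and part later. Those of NCAPH are apart from 24 h on, and the lines of ECT2 and KIF23 cross before 72 h.

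Whether the depletion effect differed between times was tested as the difference between the effects. From 24 h to 72 h the effect became lower for ASPM by -0.81 (SE 0.18, adjusted p = 0.0242), NDC80 by -0.90 (SE 0.23, adjusted p = 0.0399) and SGO2 by -0.77 (SE 0.20, adjusted p = 0.0493). It became higher for ECT2 by 0.83 (SE 0.19, adjusted p = 0.0222) and KIF23 by 1.03 (SE 0.25, adjusted p = 0.0323). These 3 lower and 2 higher calls stand beside 3.47% and 1.83% of all genes. From 48 h to 72 h the effect on ECT2 rose by 0.90 (SE 0.19, adjusted p = 0.0261), the 1 call of that comparison, beside 1.43% of all genes lower and 1.18% higher (0.666% and 1.49% with arrays centred on the 75th percentile). That centring moved the median of all genes from -0.08 to 0.059 and that of the members from 0.01 to 0.15. From 24 h to 48 h limma called 0 members and 0 genes (0%), with 3 members lower and 0 higher past an unadjusted p of 0.05 (3.88% and 4.16% of all genes) and 0 called without the block. For NCAPH, the early gene, the change from 24 h to 72 h was 0.45 (SE 0.18, adjusted p = 0.195), so a weakening of its effect was not past the test.

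None of these differences between times was called without the block, a fit that called 0.398% of all genes lower and 0.317% higher from 24 to 72 h and 0.0812% and 0.13% from 48 to 72 h. The count of lower effects from 24 to 72 h was 0 without the 24 h control array of set 3, the 72 h control array of set 1 or 3, the 24 h depleted array of set 1 or 2 or the 72 h depleted array of set 1. It was 1 without the 24 h control array of set 2, the 48 h control array of set 1 or 3, the 72 h control array of set 2, the 48 h depleted array of set 1 or the 72 h depleted array of set 2 or 3. The count of higher effects was 0 without the 24 h control array of set 3, the 72 h control array of set 1, the 24 h depleted array of set 1 or 3 or the 72 h depleted array of set 1 or 3. It was 1 without the 24 h control array of set 1, the 72 h control array of set 2 or 3, or the 24 h or 72 h depleted array of set 2. From 48 to 72 h it was 0 without any 72 h array or the 48 h arrays of set 1 or 2, and 2 without the 48 h control array of set 3. Each was also lost when single arrays were left out. From 24 to 72 h this was so in 6 of 18 fits for ASPM (adjusted p up to 0.0731), 7 for ECT2 (up to 0.0655), 10 for KIF23 (up to 0.0904), 14 for NDC80 (up to 0.101) and 15 for SGO2 (up to 0.124). It was so in 10 for ECT2 between 48 and 72 h (up to 0.0704). Without any 1 of the 3 sets none of these calls was made. The sizes moved less. Over these fits ASPM stayed between -0.93 and -0.74, ECT2 between 0.76 and 0.89 and KIF23 between 0.92 and 1.18.

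The time course in control cells was compared with these effects. Since it uses the same control arrays, the values are given side by side only. Control levels of 51 of the 56 genes were higher at 48 h than at 24 h, with a median difference of 0.14, where that of all genes was -0.02. Of the 12319 genes 6652 were lower in that step. At 72 h 44 members were lower than at 48 h, with a median of -0.25, where that of all genes was 0.06 and 5281 of 12319 were lower. Limma called none of the 56 in either step, nor between 24 and 72 h, with or without the block. Without it 0.0568% of all genes were called lower and 0.0487% higher from 48 to 72 h, and 0.114% and 0.0812% from 24 to 72 h. At an unadjusted p of 0.05, 5 were higher and 0 lower at 48 h than at 24 h (1.95% and 4.97% of all genes), and 17 were lower and 1 higher at 72 h than at 48 h (7.17% and 11.3% of all genes). Adjusted calls over all genes were 0% in the first step and 0.739% lower and 1.09% higher in the second (1.16% and 0.617% with arrays centred on the 75th percentile). They were 0.576% and 0.998% between 24 and 72 h, where 3 members were lower and 3 higher at an unadjusted p of 0.05 (6.8% and 8.39% of all genes). With that centring the members' median in the second step was -0.364 and that of all genes -0.058. The smallest adjusted p for a step down from 48 to 72 h were 0.0551 for NCAPG (-0.59, SE 0.14) and 0.0702 for CKS2 (-0.67, SE 0.17).

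In depleted cells the course differed by gene. Between 24 and 48 h none of the 56 was called, with or without the block, with 5 lower and 1 higher past an unadjusted p of 0.05 (7.83% and 4.73% of all genes). Of all genes 0% were called there, and the members had a median of -0.01. Between 24 and 72 h, 7 fell and 2 rose, beside 7.12% and 3.87% of all genes. SGO2 fell by 0.86 (SE 0.14, adjusted p = 0.00278), KIF20A by 0.84 (SE 0.17, adjusted p = 0.00838), ASPM by 0.71 (SE 0.13, adjusted p = 0.00438) and KIF4A by 0.66 (SE 0.13, adjusted p = 0.00799), while ECT2 rose by 0.70 (SE 0.13, adjusted p = 0.0049). The other calls were KIF11 (-0.62), KIF14 (-0.58) and NUSAP1 (-0.47) down and KIF23 (0.67) up. In control cells over the same interval SGO2 changed by -0.09, ASPM by 0.10, KIF14 by 0.11, ECT2 by -0.13 and KIF23 by -0.37. KIF20A changed by -0.26, KIF11 by -0.26, KIF4A by -0.23 and NUSAP1 by -0.09, and none of the 9 passed the test. NDC80 shows both sides of its difference: 0.44 (SE 0.16, adjusted p = 0.222) in control and -0.46 (SE 0.16, adjusted p = 0.0855) in depleted cells. Between 48 and 72 h in depleted cells KIF14, KIF4A and KIF20A fell and ECT2 rose, beside 4.36% and 4.3% of all genes.

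None of these time calls in depleted cells was made without the block, a fit that called 1.2% of all genes lower and 0.779% higher from 24 to 72 h and 0.284% and 0.568% from 48 to 72 h. The count of falls from 24 to 72 h was 4 without the 24 h depleted array of set 2, the 72 h depleted array of set 2 or the 72 h depleted array of set 3. The count of rises was 1 without any of the 6 depleted arrays of these times. From 48 to 72 h the count of falls was 0 without the 72 h depleted array of set 3 and 1 without any other depleted array of these times. That of rises was 0 without the 48 h depleted array of set 1 or 2 or any 72 h depleted array and 2 without the 24 h control array of set 2. Without set 1 or 3 no time call in depleted cells was made, and without set 2 there were 5 falls and 1 rise from 24 to 72 h and 0 from 48 to 72 h.

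Averaged over the 3 times, 20 members fell and 0 rose, beside 8.81% and 8.4% of all genes (10.6% and 5.92% with arrays centred on the 75th percentile). The median was -0.25 against 0 for all genes. NCAPH fell by 0.65 (SE 0.08, adjusted p = 0.000129), SPC25 by 0.64 (SE 0.09, adjusted p = 0.00047), CCNB1 by 0.59 (SE 0.09, adjusted p = 0.00121), BUB1 by 0.53 (SE 0.09, adjusted p = 0.00141) and KIF14 by 0.51 (SE 0.09, adjusted p = 0.00218). The others were SGO2 (-0.50), AURKB (-0.48), CCNA2 (-0.48), ASPM (-0.47), CDC20 (-0.45), KIF20A (-0.43), CKS2 (-0.40), ANLN (-0.40), DLGAP5 (-0.40), NCAPG (-0.37), UBE2C (-0.37), BIRC5 (-0.36), PTTG1 (-0.35), CCNB2 (-0.30) and HMMR (-0.28). Without the block 5 were lower, NCAPH, ASPM, CCNB1, BUB1 and KIF14, and 0 higher, beside 2.16% and 2.48% of all genes. In the fits without 1 array the count was 16 to 20, with HMMR lost in 17 of the 18, CCNB2 in 14, CDC20 in 12 and PTTG1 in 8. It was 4 without the whole of set 1, 17 without set 2 and 2 without set 3. The average hides the members that changed direction, ECT2 at 0.06 and KIF23 at 0.06, whose effects at single times are given above.

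Other probe sets of the same genes were read as a check, 43 of them in 29 genes. The sign was that of the chosen probe set in 30 of the 43 at 24 h, 37 at 48 h and 34 at 72 h. The second probe set of KIF23 was at 0.96 at 72 h (SE 0.29, adjusted p = 0.0401). Its mean of 5.18 was barely above the filter at 5.1546. It may have passed only through the depleted arrays of 72 h, where it was high, so it adds no support for the rise. The second probe set of ECT2 was at 0.55 (SE 0.26, adjusted p = 0.197). CCNB1 fell in its second probe set at 72 h by 0.78 (SE 0.20, adjusted p = 0.0217) but was at 0.13 at 24 h there, against -0.53 in the first. A second probe set of MKI67 fell at 72 h by 0.54 (SE 0.13, adjusted p = 0.0174). At 72 h the second probe set of ASPM was at -0.53 (SE 0.33, adjusted p = 0.333), the sign of the first. The remaining one was at 0.19 (SE 0.17, adjusted p = 0.527), the opposite sign to the called -0.89. The same probe set was also at 0.55 for the effect at 72 h minus 24 h (called at -0.81 in the first) and at 0.23 from 24 to 72 h in depleted cells (called at -0.71), neither past the test. The second probe set of SGO2 did not show the late onset of the first. It was at -0.56 at 24 h, -0.35 at 48 h and -0.79 at 72 h. Its effect at 72 h minus 24 h was -0.22 (SE 0.36, adjusted p = 0.792), against the called -0.77. Its change from 24 to 72 h in depleted cells was -0.14 (adjusted p = 0.779), against the called -0.86. The 3 probe sets of CDK1 beside the first were at 0.22, 0.08 and 0.35 at 72 h, none past the test. At 24, 48 and 72 h the second probe set of CCNF was at -0.28, -0.36 and -0.50. That of BUB1 was at -0.78, -0.54 and -0.19, lowest at 24 h where the first was lowest at 48 h. From 24 to 72 h in depleted cells the second probe set of NUSAP1 was at -0.06, against the called -0.47. None of these values of CCNF, BUB1 and NUSAP1 in second probe sets passed the test.

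Other genes of the cell cycle were read from lists outside the 56. Of 73 further mitosis genes 8 fell and 0 rose at 72 h, beside 8.65% and 6.21% of all genes. In the average over times 24 fell and 1 rose, beside 8.81% and 8.4%, with a median of -0.22. Among them CDKN3, a phosphatase that acts on CDKs, was at -0.92 at 72 h (adjusted p = 0.000944), the centromere subunit CENPK at -0.74 (adjusted p = 0.00162) and CENPW at -0.51 (adjusted p = 0.115). Of 17 subunits and regulators of the anaphase-promoting complex, the ubiquitin ligase that CDC20 activates, 3 fell and 0 rose at 72 h (17.6% lower against the 8.65% of all genes), with ANAPC15 at -1.14 (adjusted p = 0.000962) and CDC27 at -0.92 (adjusted p = 0.0163). Of 19 RB, E2F and MuvB regulators 7 fell and 2 rose at 72 h (36.8% lower). E2F8, a repressor of the E2F family, was at -0.65 at 24 h (adjusted p = 0.0321) and -1.16 at 72 h (adjusted p = 0.000243). TFDP2, a dimer partner of E2F proteins, rose by 0.63 (adjusted p = 0.0223).

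DNA replication genes held more calls than the mitosis genes at both ends of the time course, though the difference between the lists was not tested. Of 49 measured, 5 fell at 24 h, 0 at 48 h and 14 at 72 h, with 0 higher at each time. Of all genes 0.982%, 0.244% and 8.65% were called lower at these times and 1.98%, 0.568% and 6.21% higher. At 48 h 13 were lower and 1 higher past an unadjusted p of 0.05, and 0 were called without the block. Their median was -0.29, -0.25 and -0.41, against -0.15, -0.34 and -0.31 in the mitosis genes. UHRF1, which guides maintenance of DNA methylation at the fork, was at -0.65 at 24 h (adjusted p = 0.0271), -0.26 at 48 h and -1.39 at 72 h (adjusted p = 5.17e-05). The helicase subunit MCM4 was at -0.52 at 24 h (adjusted p = 0.0414) and -0.82 at 72 h (adjusted p = 0.000808). Of 12 CDK inhibitors and G1 cyclins 2 fell and 0 rose at 72 h (16.7% lower). CCNE1, the cyclin of S phase entry, was at -0.88 at 72 h (adjusted p = 0.00192). The CDK inhibitor CDKN1C was at 1.23 at 24 h (adjusted p = 0.013) and -0.07 at 72 h. Of 16 p53 targets 3 fell at 72 h (18.8%) and 2 rose. Those that rose were the stress gene GADD45A by 1.91 (adjusted p = 5.43e-05) and the kinase PLK2 by 1.90 (adjusted p = 4.82e-05). The third gene named by its p in the average, TP53INP1, was at 0.49 at 72 h (adjusted p = 0.33). The named genes do not stand for the list, in which more were called lower than higher. Without the block none of the calls of these lists at 24 h was made, those of UHRF1, MCM4, E2F8 and CDKN1C included. The counts at 72 h were then 2 lower of the further mitosis genes and 1 of the anaphase-promoting complex. The RB, E2F and MuvB list had 1 lower, the replication genes 5 and the inhibitors and cyclins 1. The p53 targets had 0 lower and 2 higher. In that fit 2.47% of all genes were called lower and 1.92% higher at 72 h, and counts of 1 or 2 genes are description only.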

How the data were processed

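Each of the 18 arrays gave 54675 probe sets as deposited signal intensities on a linear scale, made by the authors with MAS5, per the submitters' processing notes (version not given in the sources used here). The trimmed mean (2% off each end) was 100.01 on every array. Values were taken to log2(signal + 16). After removal of 62 control probe sets, those whose mean reached the median (5.1546, or a signal of 19.6) numbered 27307 and were tested. The platform annotation gave 41091 probe sets 1 symbol, 1801 several and 11721 none; 41043 were found by Entrez ID in a current annotation and 0 symbols changed. Of 111 probe sets of the members 99 passed, and 25 members have 1 probe set.

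A limma fit (limma 3.58.1, R 4.3.3) took all arrays with 6 group means plus the set as replicate block; Benjamini-Hochberg adjustment ran over the 27307 probe sets with a threshold of 0.05 (10 residual and 3.62 prior degrees of freedom, 4.57 prior without the block). The pairing comes from the array numbers in the labels, which run through the 6 groups once per set. Deviations from group means correlated at 0.302 to 0.602 within sets (45 pairs) and at -0.48 to 0.163 between sets, and 18 of 18 arrays correlated best with their own set. The script was tested on simulated data, and Python 3.11.15 with matplotlib 3.10.9 drew the figures.

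The members and lists were chosen with earlier results of these data known. Values per array are given for up to 6 members with the smallest p among those called at each time and direction, the 6 with the smallest p in the change from 24 to 72 h, and 8 members that stand for roles; of each other list up to 3 genes with the smallest p in the average are named. KIF20A at 72 h was added after its values were seen. Alternatives were no block, other pseudocounts, filters, centring and quantile normalization, an intensity trend, the second probe set, the arrays of 1 time alone and leaving out arrays or sets. Members without a promoter entry were BUB3, AURKA, FOXM1, BIRC5, TTK, RACGAP1, TPX2 and UBE2C.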

Additional observations from a re-analysis of the deposited data

Results flagged for a closer look

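The depletion effect of 5 members differed between 24 and 72 h by the test of that difference, and that of 1 between 48 and 72 h. Of all genes 3.47% were called lower and 1.83% higher from 24 to 72 h, and 1.43% and 1.18% from 48 to 72 h. ECT2 went from a value below 0 at 24 h to one above 0 at 72 h, a change of 0.83 (SE 0.19, adjusted p = 0.0222), and its change from 48 to 72 h was 0.90 (SE 0.19, adjusted p = 0.0261). KIF23 went the same way by 1.03 (SE 0.25, adjusted p = 0.0323). ASPM went down by -0.81 (SE 0.18, adjusted p = 0.0242), NDC80 by -0.90 (SE 0.23, adjusted p = 0.0399) and SGO2 by -0.77 (SE 0.20, adjusted p = 0.0493). Among these values 3 have an adjusted p above 0.03, and none was called in the fit without the block. Each call was lost in 6 (ASPM) to 15 (SGO2) of the 18 fits without 1 array. From 24 to 72 h the second probe set of SGO2 was at -0.22 (adjusted p = 0.792) and the third of ASPM at 0.55 (adjusted p = 0.217). These calls are therefore not firm differences in timing. Groups of 3 arrays are too small for a test of single outlying arrays.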

How the results depend on the processing

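No called value changed its sign under the alternatives below, of which the probe set choice covers the second probe set only. The third probe set of ASPM, read outside them, had the opposite sign to the first for the called values at 72 h (0.19), at 72 h minus 24 h (0.55) and from 24 to 72 h in depleted cells (0.23). The counts of members past the test depended on the settings. For the other filters, the pseudocount and the trend, shares of all genes called are not given here. Those counts therefore cannot show whether the members or all genes gained or lost calls. Without the replicate block, the lower counts were 0 at 24 h, 0 at 48 h, 2 at 72 h and 5 in the average, the higher count at 72 h was 0, and all differences between times and all time steps in depleted cells had 0 calls; pairing by set decides these calls, and the fit without it gives the same differences with larger SE. With no filter the lower counts were 1, 0 and 6 at 24, 48 and 72 h, the differences between times had 0, and depleted cells had 1 lower and 0 higher from 48 to 72 h and 4 and 1 from 24 to 72 h. With a filter at the 75th percentile (55 members) the lower counts were 7, 9, 20 and 31 in the average; the difference from 24 to 72 h had 7 lower and that from 48 to 72 h 3 higher; control cells had 3 lower from 48 to 72 h, and depleted cells 1 lower from 24 to 48 h, 9 lower and 3 higher from 48 to 72 h and 11 lower from 24 to 72 h. With a pseudocount of 64 they were 5 and 7 at 24 and 48 h, 5 lower and 2 higher for the differences, 3 lower in control and 2 higher in depleted cells from 48 to 72 h. An intensity trend gave 6, 9 and 18 lower, 3 higher for the difference from 48 h, 5 lower in control cells from 48 h and 1 from 24 h, 7 lower and 2 higher in depleted cells from 48 h and 12 lower from 24 h. Centring on the 75th percentile gave 4 lower at 48 h, 0 for the difference from 24 h and 1 in control cells; quantile normalization gave 1 at 48 h. The second probe sets (29 genes) gave 0, 0 and 2 lower and 1 higher at 72 h, 7 in the average, 0 for differences, and in depleted cells 1 and 0 from 48 h and 2 and 1 from 24 h. Arrays of 1 time alone gave 0, 0 and 4 lower and 0 higher. The cause was not tested.

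Leaving out 1 array or 1 set gave lower counts of 0 to 2 at 24 h, 0 to 2 at 48 h, 0 to 12 at 72 h and 2 to 20 in the average, and 0 to 2 higher at 72 h. Differences ranged over 0 to 4 lower and 0 to 2 higher from 24 h and 0 to 2 higher from 48 h, and depleted cells over 0 to 4 lower and 0 to 2 higher from 48 h and 0 to 9 and 0 to 2 from 24 h. Without a set, 2 arrays a group remain. The number of arrays limits which differences can pass, and MAS5 detection calls were not used here.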
